A study of Bos taurus with 10 samples.

Results

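The genes of the proteasome and of ubiquitin conjugation were followed across 5 tissues of lactating cattle. They were taken by symbol, as every named gene on the array whose name starts with PSMA to PSMG (proteasome subunits and helpers), UBA plus a digit (activating enzymes), UBE2 (conjugating enzymes) or USP plus a digit (ubiquitin-specific proteases). This gave 69 of 4366 named genes, on 86 of 5472 named cDNA elements, and 68 of the 69 had a value on every array. They were 28 proteasome genes, 3 activating enzymes, 20 conjugating enzymes and 18 proteases. The 5 groups were liver, mammary gland, subcutaneous adipose tissue, mesenteric adipose tissue and omental adipose tissue, all labelled as cow tissue at peak lactation, with no treatment, breed, age or number of animals given. Each tissue was 1 RNA sample on 2 two-colour arrays, with the tissue in Cy3 on the first and in Cy5 on the second, against a standard mixed from tissues. The mesenteric and omental depots were averaged as visceral adipose tissue. In these bulk samples a smaller share of a cell type and less RNA per cell cannot be told apart.

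The 26S proteasome degrades proteins tagged with ubiquitin. Its 20S core is a barrel of alpha and beta subunits, of which PSMB5, PSMB6 and PSMB7 carry the catalytic sites, and its 19S cap has a ring of PSMC ATPases and a set of PSMD subunits that bind, unfold and deubiquitinate substrates. In immune cells and under interferon the catalytic subunits are exchanged for PSMB8, PSMB9 and PSMB10, which form the immunoproteasome and favour peptides for class I presentation. Ubiquitin reaches its substrate through an E1 activating enzyme, an E2 conjugating enzyme and a ligase, and proteases such as the USP family remove it.

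A level in what follows is the log2 ratio of tissue to the mixed standard, with the array's median set to 0, and it is given on the Cy3 array and then on the Cy5 array of a tissue. A difference is between the levels of 2 tissues, as the mean of both dye orientations, and the figure after ± is the distance of either orientation from that mean. With 1 RNA sample a tissue there is no spread between animals and no test. A gene was called higher or lower when the mean difference reached 1 log2 unit (2-fold) with the same sign in both orientations, and a smaller size of 1.5-fold was counted beside it. Which dye the ratio puts on top is not stated, and the direction used is likely only, because 3 of 4 hepatocyte genes were then higher in liver than in mammary gland (median 3.19) and 4 of 4 milk genes lower (median -2.85). With the opposite direction every sign turns. Gene names depend on a print layout rebuilt from the data, so a single clone may be misnamed, and near-identical relatives such as UBE2D2 and UBE2D4 may bind each other's cDNA. A ratio to the standard does not compare the abundance of different genes.

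Between 15970 and 16245 of 16416 spots had a value on an array. The 2 arrays of a tissue correlated at -0.78 to -0.66 before the sign of the Cy3 arrays was turned. The labels of the omental Cy5 array contradict each other on the dye of the standard. Adipocyte markers, 6 measured of 17 listed, had median levels of -0.21 in subcutaneous, 1.29 in mesenteric and 1.43 in omental adipose tissue. Single markers ran from -1.60 to 1.12 in subcutaneous, -2.26 to 2.18 in mesenteric and 0.30 to 1.82 in omental adipose tissue. The subcutaneous median was thus the lowest of the depots, and its place below the standard depends on the centring. Without setting the medians to 0, all genes shift by a median of -0.22 between liver and mammary gland, -0.08 between liver and visceral adipose tissue, 0.14 between mammary gland and visceral adipose tissue, 0.64 between subcutaneous and visceral adipose tissue and -0.32 between mesenteric and omental adipose tissue. Differences below are relative to these shifts.

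Proteasome and ubiquitin genes varied little between the tissues. The range from the lowest to the highest of the 5 tissues had a median of 0.60 log2 units over the 68 genes with all values, beside 0.73 over 4307 genes, and 11 of the 68 spanned a full log2 unit or more (16.2%), beside 1417 of the 4307 (32.9%). The widest were UBE2L6 and UBE2H at 1.58 each, PSMB8 at 1.49, PSMD8 at 1.46, PSMG4 at 1.38, UBE2F at 1.15, USP14 at 1.11, PSMB6 at 1.10, PSMA7 at 1.08, PSMB9 at 1.04 and UBE2C at 1.01. The narrowest were PSMG1, an assembly chaperone of the core, at 0.18, PSMD5 at 0.19 and USP42 at 0.24.

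**Figure D1:**
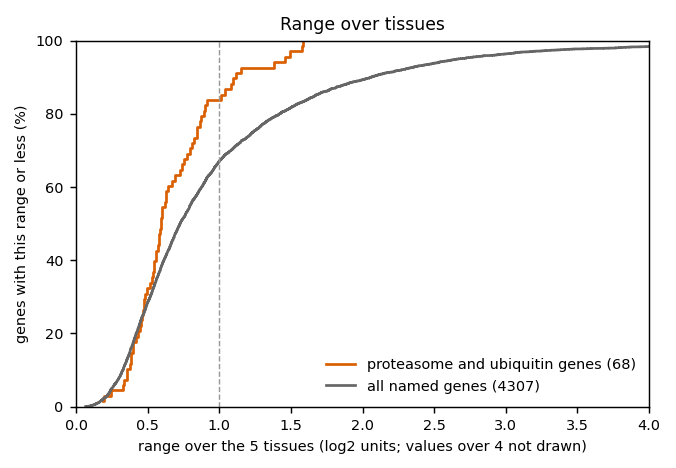
Cumulative share of genes (y axis, percent) against the range of their level over the 5 tissues (x axis, log2 units), for 68 proteasome and ubiquitin genes and for 4307 named genes. The dashed line marks 1 log2 unit, below which lie all but 11 of the 68.

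Only 8 of the 69 genes passed the 2-fold rule in any of 5 comparisons, in 10 calls, and 26 passed 1.5-fold in at least 1 comparison. Between liver and mammary gland 3 genes were higher in liver and 2 lower, of 68 measured, against 13.8% of all genes called in either direction, 9.36% higher and 4.44% lower. The liver to visceral comparison had 1 gene higher in liver and 0 lower of 69 (13.4% of all genes, 7.44% higher, 5.96% lower). Mammary gland against visceral adipose tissue had 1 higher and 0 lower of 68 (9.63%, with 3.29% higher and 6.35% lower). Subcutaneous against visceral adipose tissue had 1 higher and 1 lower of 69 (9.93%, with 6.23% higher and 3.69% lower), and mesenteric against omental adipose tissue 0 higher and 1 lower (1.36%, with 0.783% higher and 0.576% lower). The share of members called was thus below that of all genes in 4 comparisons and near it in the last. Without centring the members split 1 higher to 3 lower between liver and mammary gland, 1 to 1 between liver and visceral adipose tissue, and 15 to 0 between subcutaneous and visceral adipose tissue. All genes split 405 higher to 192 lower between liver and mammary gland and 304 to 299 without centring, 142 to 274 and 185 to 190 between mammary gland and visceral adipose tissue, 270 to 160 and 859 to 40 between subcutaneous and visceral adipose tissue, and 34 to 25 and 18 to 75 between the visceral depots. After quantile normalization the members split 1 to 1 between liver and mammary gland, 1 to 2 between subcutaneous and visceral adipose tissue and 0 to 2 between the visceral depots.

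The SD of the differences over members was 0.50 between liver and mammary gland, beside 0.89 over all genes. Between mesenteric and omental adipose tissue it was 0.33, beside 0.32. The 0.33 includes UBE2Q2 at -2.02, which had 7 missing spots, and the SD without UBE2Q2 was not computed. At 1.5-fold, 10 members were higher and 5 lower in liver than in mammary gland (28.7% of all genes, 17.4% higher and 11.3% lower). Against visceral adipose tissue, 7 were higher and 4 lower in liver (28% of all genes, 14.5% and 13.5%), 1 higher and 5 lower in mammary gland (24.2%, with 8.41% and 15.8%), and 5 higher and 2 lower in subcutaneous adipose tissue (21.4%, with 12.8% and 8.56%). Between mesenteric and omental adipose tissue 1 was higher and 2 lower (4.45%, with 2.12% and 2.33%).

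Many small differences had the same sign in both orientations. At any size, 30 members were above and 20 below mammary gland in liver, where 73.8% of all genes kept their sign, 37.3% above and 36.6% below. Against visceral adipose tissue, 31 were above and 21 below in liver (79.6%, with 38.1% and 41.4%), 25 above and 31 below in mammary gland (76.6%, with 35.6% and 41%), and 40 above and 10 below in subcutaneous adipose tissue (77.3%, with 40.5% and 36.8%). Between mesenteric and omental adipose tissue 15 were above and 30 below (66.1%, with 31.6% and 34.5%). The split of the members was furthest from that of all genes between subcutaneous and visceral adipose tissue.

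**Figure D2:**
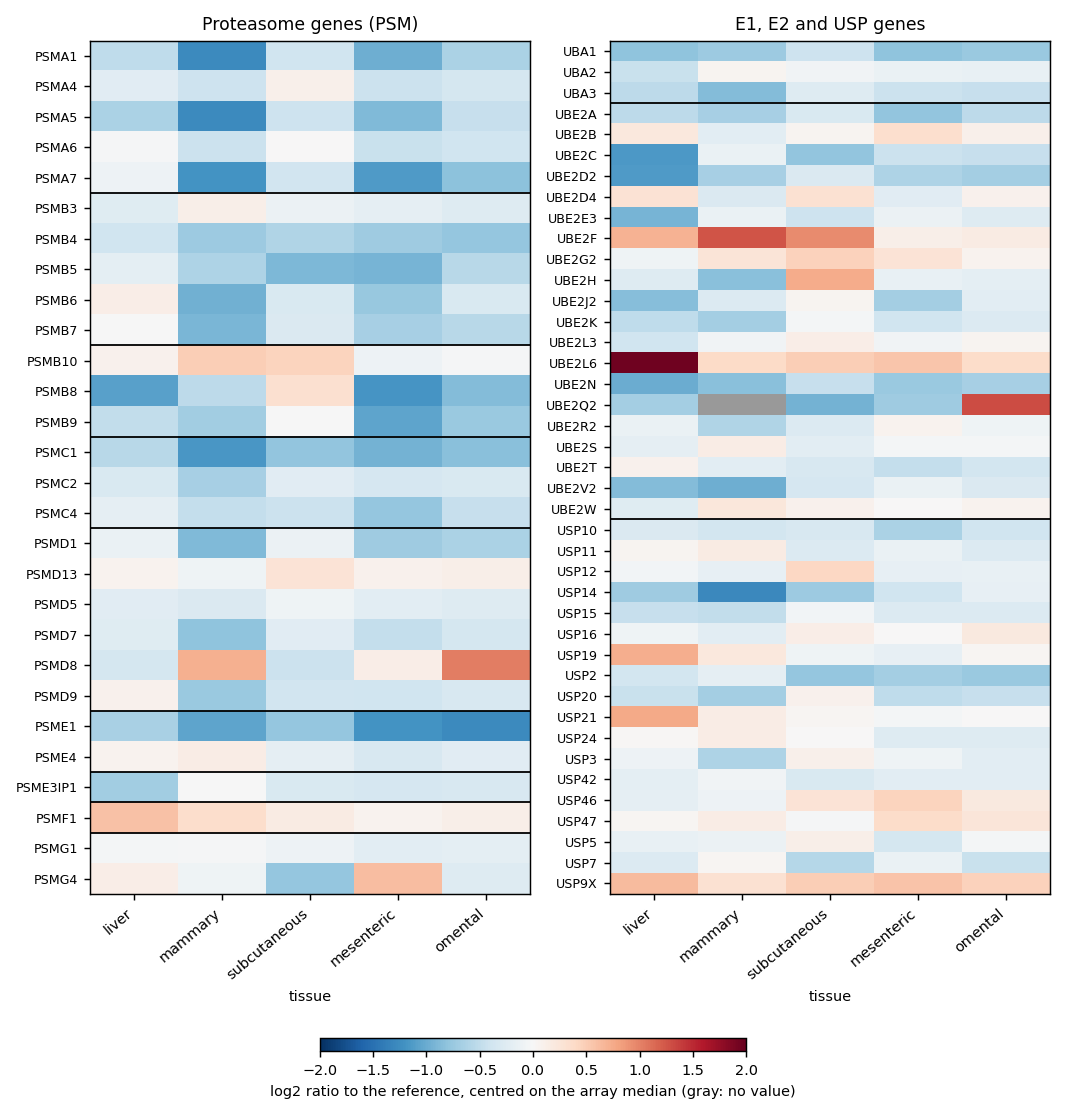
Heat map of the centred log2 ratio to the standard (colour, from -2 to 2) for the 28 proteasome genes (left) and the 41 E1, E2 and USP genes (right), as rows by role with black lines between roles, and the 5 tissues as columns. UBE2L6 in liver (1.94) is the darkest red, and the gray cell is UBE2Q2, which has no Cy5 value in mammary gland. On these centred values 5 of the 10 constitutive core subunits are lowest in mammary gland, a rank that depends on the centring.

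Most genes with symbols of the constitutive 26S proteasome lay above mammary gland in liver. The 19 are 5 PSMA, 5 PSMB, 3 PSMC and 6 PSMD genes, and they include PSMD5 and PSMD9, which carry PSMD symbols but are chaperones of cap assembly and not subunits. Of the 19, 13 lay above it in both orientations, 2 below and 4 had orientations that differ in sign, where 37.3% of all genes were above and 36.6% below. Past 1.5-fold, 8 of the 19, PSMD9 among them, were higher in liver and 1 lower (17.4% and 11.3% of all genes). In the same pair of samples 4 of 4 milk genes were past 2-fold lower in liver. Of 14 epithelial markers 7 were lower and 2 higher past 2-fold, beside 4.44% and 9.36% of all genes. The part of the cell makeup was not tested. The median difference of the 19 was 0.42, beside -0.01 over all genes. It was 0.25 on the Cy3 arrays alone, 0.67 on the Cy5 arrays alone, 0.21 without centring and 0.33 after quantile normalization.

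PSMB6, the catalytic subunit with caspase-like activity, stood at 0.10 and 0.18 in liver, -0.75 and -1.17 in mammary gland, -0.48 and -0.12 in subcutaneous, -0.75 and -0.78 in mesenteric and -0.19 and -0.42 in omental adipose tissue. With centring, liver was thus higher than each of the other tissues on both arrays, and mammary gland and the mesenteric depot overlapped at the low end. The difference between liver and mammary gland was 1.10 ± 0.25 (2.14-fold).

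PSMA7, an alpha ring subunit, stood at -0.09 and -0.13 in liver, -0.90 and -1.47 in mammary gland, -0.40 and -0.37 in subcutaneous, -1.11 and -1.15 in mesenteric and -0.61 and -1.01 in omental adipose tissue. Again both liver arrays were above all others with centring. Without it the median level of the 10 core subunits was 0.13 in liver and 0.67 in subcutaneous adipose tissue. The place of liver above subcutaneous adipose tissue thus depends on the centring. PSMA7 differed by 1.08 ± 0.27 (2.12-fold) between liver and mammary gland, and its 2 clones gave 0.99 and 1.17. Both genes fell short of 2-fold on the Cy3 arrays alone (0.85 for PSMB6 and 0.82 for PSMA7), without centring (0.88 and 0.87) and after quantile normalization (0.91 and 0.90).

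The next largest differences between liver and mammary gland were those of PSMB7, the catalytic subunit with trypsin-like activity (0.90 ± 0.33), PSMD9 (0.82 ± 0.18), PSMA1 (0.76 ± 0.07) and PSMD1, a scaffold of the cap (0.75 ± 0.03). PSMA5 followed at 0.64 ± 0.46 and the ATPase PSMC1 at 0.60 ± 0.07. The other chaperone, PSMD5, differed by 0.06 ± 0.06. The lowest core subunit was PSMB3, which is not catalytic, at -0.37 ± 0.32. The 10 core subunits had a median of 0.53 and the 9 cap genes one of 0.36.

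Across tissues and with centring, 12 of the 19 genes had their lowest level in mammary gland. By the same measure 8 had their highest in liver and 9 in subcutaneous adipose tissue. Over 4307 genes, 1153 were lowest in mammary gland, 1055 highest in liver and 1120 highest in subcutaneous adipose tissue. With centring, 16 or 17 of the 19 lay below the standard in every tissue. Without it the number below was 5 in liver, 12 in mammary gland, 0 in subcutaneous, 15 in mesenteric and 7 in omental adipose tissue. A position below the standard thus depends on the centring, and so do the ranks of the tissues. Without centring the median level of the 19 was -0.44 in mesenteric adipose tissue, below -0.17 in mammary gland. It was 0.71 in subcutaneous adipose tissue, above 0.11 in liver.

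The comparisons of liver and of mammary gland with visceral adipose tissue share the visceral arrays. In liver 12 of the 19 genes were above visceral adipose tissue and 2 below in both orientations (38.1% and 41.4% of all genes), with a median of 0.34 that ran from 0.25 to 0.45 over the alternatives. PSMA7 differed by 0.87 ± 0.09, PSMB6 by 0.67 ± 0.11 and PSMB7 by 0.60 ± 0.23, all past 1.5-fold. In mammary gland 3 were above and 11 below (35.6% and 41% of all genes), with a median of -0.22. That median was -0.05 without centring and 0.01 after quantile normalization, so its sign is not settled. PSMA5 was the 1 gene of the 19 past 1.5-fold, at -0.60 ± 0.36.

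In subcutaneous adipose tissue 14 of the 19 were above visceral adipose tissue and 2 below (40.5% and 36.8% of all genes), with a median of 0.18, or 0.81 without centring. All 5 alpha subunits were above, from 0.26 for PSMA5 to 0.59 ± 0.12 for PSMA7, whereas PSMB5 differed by -0.15 ± 0.01. In mesenteric against omental adipose tissue 0 were above and 12 below (31.6% and 34.5% of all genes), with a median of -0.11, led by PSMD8 at -0.90 ± 0.49, with PSMB6 at -0.46 ± 0.10 and PSMA5 at -0.42 ± 0.02. None of the 19 except PSMD8 passed 1.5-fold there.

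**Figure D3:**
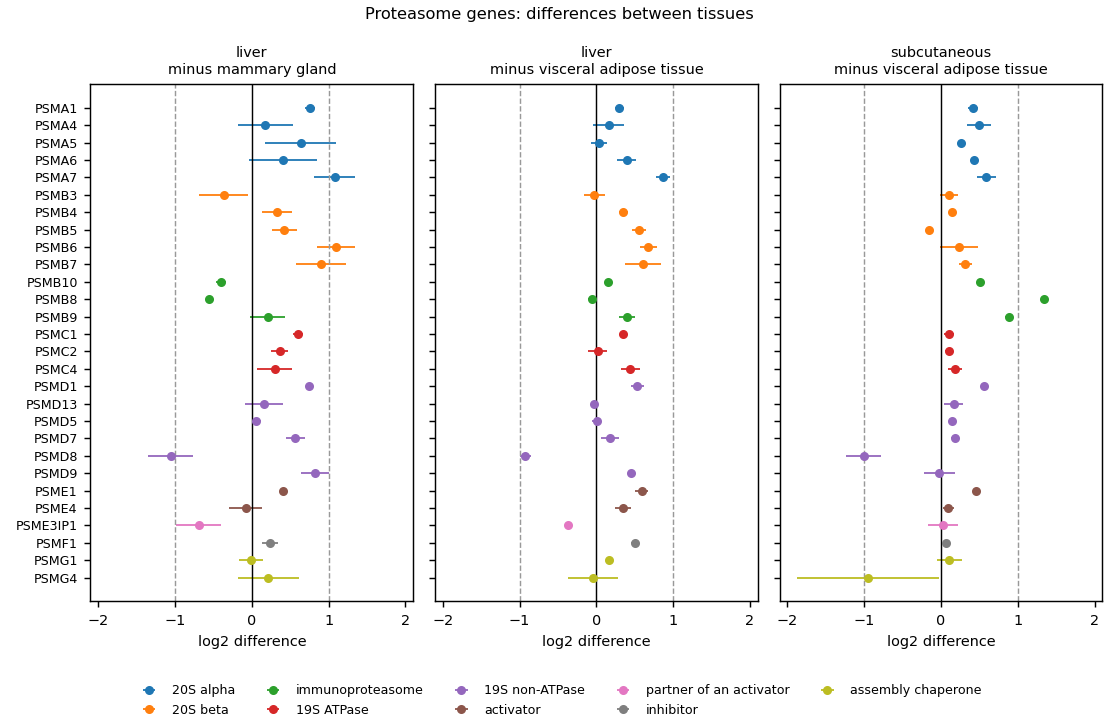
Log2 differences (x axis) of the 28 proteasome genes (y axis, coloured by role) between liver and mammary gland, liver and visceral adipose tissue, and subcutaneous and visceral adipose tissue. Points are means of both dye orientations, bars reach each orientation, and dashed lines mark 2-fold; most core and cap genes lie right of 0 in the first panel, and PSMB8 (1.34) passes 2-fold in the last.

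PSMD8, a lid subunit, had the lowest difference of the 9 cap genes in each comparison except mammary gland against visceral adipose tissue. The median of the cap genes was 0.36 between liver and mammary gland, 0.18 between liver and visceral adipose tissue, 0.14 between subcutaneous and visceral adipose tissue and -0.08 between mesenteric and omental adipose tissue. Its levels were -0.42 and -0.27 in liver, 0.34 and 1.08 in mammary gland, -0.34 and -0.52 in subcutaneous, -0.26 and 0.52 in mesenteric and 1.13 and 0.93 in omental adipose tissue. Liver and subcutaneous adipose tissue were low, the omental depot was high, and the mesenteric arrays disagreed in sign. PSMD8 was lower in liver than in mammary gland (-1.05 ± 0.29) and lower in subcutaneous than in visceral adipose tissue (-1.01 ± 0.23). On the Cy3 arrays alone these were -0.76 and -0.78, and the second was -0.38 without centring and -0.90 without the omental Cy5 array. The mesenteric minus omental difference was -0.90 ± 0.49. PSMD8 is represented by 1 clone. Its duplicate spots lay up to 0.92 log2 units apart, with 0.98 and 0.05 on the mesenteric Cy5 array.

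The immunoproteasome subunits had their highest or second highest mean levels in the subcutaneous sample. By the mean of both arrays all 3 were lowest in mesenteric adipose tissue. For PSMB10 the mesenteric arrays (0.07 and -0.27) overlapped the omental ones (0.06 and -0.12). For PSMB8 they overlapped those of liver. PSMB8 stood at -1.33 and -0.85 in liver, -0.81 and -0.25 in mammary gland, 0.09 and 0.54 in subcutaneous, -1.34 and -1.01 in mesenteric and -1.10 and -0.65 in omental adipose tissue. Both subcutaneous arrays were above every other array. It was higher in subcutaneous than in visceral adipose tissue by 1.34 ± 0.03 (2.53-fold), and passed 2-fold under each alternative run (1.31 to 1.97).

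PSMB9 stood at -0.56 and -0.42 in liver, -0.54 and -0.85 in mammary gland, 0.08 and -0.09 in subcutaneous, -0.97 and -1.12 in mesenteric and -0.74 and -0.73 in omental adipose tissue. Its subcutaneous arrays too lay above all others. The subcutaneous minus visceral difference was 0.89 ± 0.05 (1.85-fold), past 1.5-fold and short of 2-fold. PSMB10 differed by 0.51 ± 0.04 and passed neither size; its levels were similar in mammary gland (0.54 and 0.43) and subcutaneous adipose tissue (0.53 and 0.36). In the RefSeq gene table TAP1, a subunit of the peptide transporter, lies between PSMB8 and PSMB9, and TAP2 lies nearby, while PSMB10 lies next to LCAT.

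Most leukocyte markers were higher in the same subcutaneous sample. The myeloid markers C1QA, C1QB and C1QC went the other way. They stood at 1.97, 1.45 and 0.79 in subcutaneous, 2.61, 2.38 and 2.26 in mesenteric and 2.68, 2.22 and 2.07 in omental adipose tissue. Of 19 myeloid markers measured, 15 were higher than in visceral adipose tissue and 1 lower (median difference 2.89), with median levels of 2.61 in subcutaneous (0.71 to 6.63), 1.10 in mesenteric (-2.30 to 2.61) and 1.29 in omental adipose tissue (-1.998 to 3.01). Of 7 T and NK cell markers 4 were higher (median difference 1.63), while 4 of 6 adipocyte and 4 of 5 endothelial markers were lower (medians -1.78 and -1.17). The part of the leukocytes in the immunoproteasome differences was not tested.

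Most measured genes that act with the immunoproteasome lay above visceral adipose tissue in the subcutaneous sample. In both orientations 4 of 5 class I genes were above and 1 below (median 0.35). Of 9 interferon response genes 5 were above, 1 below and 3 had orientations that differ in sign (median 0.22). The shares of all genes were 40.5% above and 36.8% below. BOLA-NC1, a class I heavy chain gene, was higher in subcutaneous than in visceral adipose tissue (1.18 ± 0.06). The class I gene below was TAP2, at -0.91 ± 0.05. TAP2 was also lower in mammary gland than in visceral adipose tissue (-1.06 ± 0.17). Among 9 interferon response genes, IRF8, a factor of myeloid cells, was higher in subcutaneous than in visceral adipose tissue (1.31 ± 0.12), whereas IRF1 differed by 0.40 ± 0.05, MX1 by 0.04 ± 0.25, RSAD2 by 0.16 ± 0.02 and IRF9 by -0.71 ± 0.09. IFI35 was higher in mammary gland than in visceral adipose tissue (1.06 ± 0.39).

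All 3 exchange pairs of catalytic subunits were on the array, and the difference within a pair does not depend on the centring. This comparison was chosen after the values were seen. Between liver and mammary gland PSMB8 differed by -0.56 ± 0.04 and PSMB5, which it replaces, by 0.42 ± 0.16. PSMB9 differed by 0.21 ± 0.23 and its counterpart PSMB6 by 1.10 ± 0.25, and PSMB10 by -0.40 ± 0.07 and its counterpart PSMB7 by 0.90 ± 0.33. Immunoproteasome minus constitutive subunit was therefore -0.98 ± 0.20, -0.89 ± 0.03 and -1.30 ± 0.39 in the 3 pairs. Each was negative in both orientations and under every alternative run, from -1.69 to -0.76. Some of these runs could not change a pair and add no check. The centring cancels within a pair, and a median over elements changes nothing for genes with 1 clone.

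Between subcutaneous and visceral adipose tissue the pairs differed in size. PSMB8 minus PSMB5 was 1.49 ± 0.03 (1.47 to 1.70 over the alternatives), PSMB9 minus PSMB6 was 0.65 ± 0.30 and PSMB10 minus PSMB7 was 0.19 ± 0.13. In mammary gland against visceral adipose tissue the values were 0.37 ± 0.16, 0.62 ± 0.02 and 0.85 ± 0.17, and the first ran from -0.13 to 0.52 over the alternatives. In liver against visceral adipose tissue they were -0.61 ± 0.04, -0.27 ± 0.00 and -0.45 ± 0.22. Between the mesenteric and omental depots they were 0.07 ± 0.10, 0.14 ± 0.18 and 0.04 ± 0.12, with orientations that disagreed in all 3 pairs. These comparisons share arrays and are not independent of each other.

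**Figure D4:**
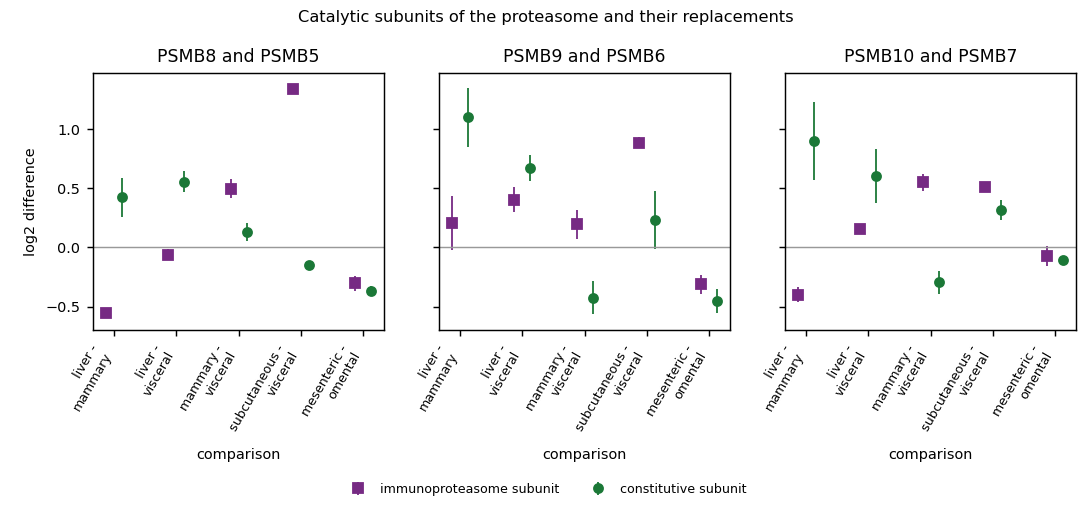
Log2 differences (y axis) in 5 comparisons (x axis) for each immunoproteasome subunit (squares) and the constitutive subunit it replaces (circles). Points are means of both dye orientations and bars reach each orientation; between liver and mammary gland the squares lie below the circles in all 3 panels, and PSMB8 lies far above PSMB5 between subcutaneous and visceral adipose tissue.

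The regulators of the core showed smaller differences, none of them past 2-fold. PSME1, a subunit of the interferon-inducible PA28 activator, stood at -0.65 in liver, -1.05 in mammary gland, -0.78 in subcutaneous, -1.20 in mesenteric and -1.28 in omental adipose tissue. Its dye orientations lay within 0.07 of those means in every tissue. It differed by 0.59 ± 0.08 between liver and visceral adipose tissue, which passed 1.5-fold, and by 0.46 ± 0.04 between subcutaneous and visceral adipose tissue. PSME4, the activator PA200, differed by 0.42 ± 0.11 between mammary gland and visceral adipose tissue. PSME3IP1, a binding partner of the nuclear activator PSME3, passed 1.5-fold in the other direction between liver and mammary gland (-0.69 ± 0.29).

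PSMF1, the inhibitor PI31, was the regulator most above the standard in liver, at 0.48 and 0.70, against 0.14 and 0.57 in mammary gland and between 0.01 and 0.22 on the adipose arrays. Liver minus visceral adipose tissue was 0.50 ± 0.05, short of 1.5-fold. PSMG1, with PSMG4 a chaperone of core assembly, did not pass 1.5-fold in any comparison. PSMG4 passed it between mesenteric and omental (0.87 ± 0.29) and between subcutaneous and visceral adipose tissue (-0.95 ± 0.92), but its duplicate spots lay up to 1.64 log2 units apart and its subcutaneous arrays read -1.86 and 0.32.

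The 3 E1 genes stayed within narrow limits. UBA1, the main activating enzyme of ubiquitin, stood at -0.81 in liver, -0.73 in mammary gland, -0.41 in subcutaneous, -0.80 in mesenteric and -0.74 in omental adipose tissue, and differed by 0.37 ± 0.02 between subcutaneous and visceral adipose tissue. UBA3, of the enzyme that activates NEDD8, differed by -0.42 ± 0.00 between mammary gland and visceral adipose tissue and by 0.34 ± 0.11 between liver and mammary gland. UBA2, of the SUMO activating enzyme, had its largest difference between liver and mammary gland, at -0.50 ± 0.45. None of the 3 passed 1.5-fold in a comparison.

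Among the E2 enzymes with a value on every array, UBE2L6, which conjugates ISG15 and ubiquitin, had the widest range over the tissues, with UBE2H next to it. Its levels were 1.62 and 2.27 in liver, -0.07 and 0.83 in mammary gland, 0.05 and 0.94 in subcutaneous, 0.06 and 1.04 in mesenteric and 0.01 and 0.71 in omental adipose tissue. The liver arrays lay above all others, and the other 4 tissues overlapped. UBE2L6 was higher in liver than in mammary gland by 1.57 ± 0.13 (2.96-fold) and than in visceral adipose tissue by 1.49 ± 0.10 (2.80-fold). Both stayed past 2-fold in every alternative run, from 1.19 to 1.69 and from 1.06 to 1.59. Subcutaneous minus visceral adipose tissue was 0.04 ± 0.02, so it did not follow PSMB8 there. Its relative UBE2L3 differed by -0.34 ± 0.03 between liver and mammary gland. SERPING1, a plasma protein gene, is its neighbour in the RefSeq gene table. It is represented by 1 clone.

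UBE2F, which conjugates NEDD8, stood at 0.44 and 0.96 in liver, 0.91 and 1.61 in mammary gland, 0.79 and 1.11 in subcutaneous, 0.01 and 0.21 in mesenteric and -0.01 and 0.34 in omental adipose tissue. Both visceral depots were low, and the other 3 tissues overlapped. The gene was higher in mammary gland than in visceral adipose tissue by 1.12 ± 0.22 (2.18-fold), with 0.95 and 1.30 on its 2 clones. This was 0.91 on the Cy3 arrays alone and 0.85 with the subcutaneous depot added to the adipose mean. Subcutaneous minus visceral adipose tissue was 0.81 ± 0.02, past 1.5-fold, and liver minus visceral adipose tissue 0.56 ± 0.13.

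**Figure D5:**
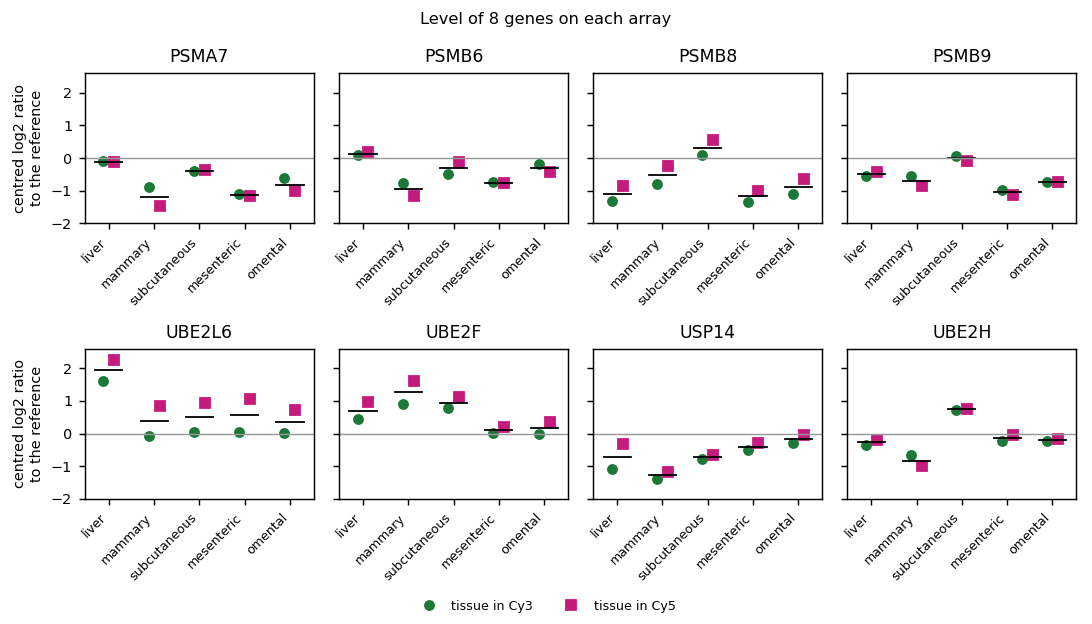
Centred log2 ratio to the standard (y axis) of 8 genes on the Cy3 array (circle) and the Cy5 array (square) of each tissue (x axis), with the mean as a bar. Liver is highest for PSMA7, PSMB6 and UBE2L6, the subcutaneous depot for PSMB8, PSMB9 and UBE2H, mammary gland for UBE2F, and mammary gland is lowest for USP14.

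UBE2H read 0.72 and 0.76 in subcutaneous adipose tissue and -0.66 and -1.01 in mammary gland, with the other tissues between. Subcutaneous minus visceral adipose tissue was 0.92 ± 0.05 and mammary gland minus visceral adipose tissue -0.66 ± 0.24, both past 1.5-fold. Its 2 clones gave 0.35 and 1.48 for the first of these, and the duplicate spots of 1 clone lay up to 2.05 log2 units apart. Without that clone the difference was 1.48.

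UBE2C, which serves the anaphase-promoting complex in dividing cells, was lower in liver than in mammary gland (-1.01 ± 0.58). Liver minus visceral adipose tissue was -0.70 ± 0.43, past 1.5-fold. Both leaned on the Cy3 liver array, which read -1.81 against -0.48 on the Cy5 array, and the difference from mammary gland was -0.43 on the Cy5 arrays alone and -0.92 after quantile normalization. UBE2S and UBE2T, which also act in cell division and DNA repair, differed by -0.31 ± 0.17 and 0.30 ± 0.07 in that comparison. But the UBE2S arrays read 0.96 and -1.31 in liver and 1.11 and -0.83 in mammary gland. Its duplicate spots lay up to 2.95 log2 units apart.

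UBE2E3 stood low in liver, at -0.87 and -0.99, against -0.03 and -0.25 in mammary gland, -0.07 and -0.18 in mesenteric and -0.21 and -0.31 in omental adipose tissue. It passed 1.5-fold against both (-0.79 ± 0.05 and -0.74 ± 0.00). UBE2V2, the partner of UBE2N in building chains linked through lysine 63, read -0.87 in liver and -0.98 in mammary gland, against -0.33 in subcutaneous, -0.14 in mesenteric and -0.28 in omental adipose tissue. Against visceral adipose tissue it differed by -0.66 ± 0.02 in liver and -0.77 ± 0.02 in mammary gland, both past 1.5-fold, whereas UBE2N differed by -0.28 ± 0.03 and -0.12 ± 0.09. UBE2R2, a cullin ligase E2, passed 1.5-fold between mammary gland and visceral adipose tissue (-0.59 ± 0.09), and UBE2J2, an E2 of the endoplasmic reticulum membrane, between liver and mammary gland (-0.58 ± 0.15).

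UBE2Q2 was the 1 member called between the visceral depots, lower in mesenteric than in omental adipose tissue (-2.02 ± 0.17). It was read from 1 spot on each mesenteric array and on the omental Cy5 array, 7 of its 20 spots were missing, and spots of 1 array lay up to 1.14 log2 units apart. With such elements left out it had no value. The other E2 genes passed neither size in any comparison. Over the family the medians were -0.16 between liver and mammary gland, -0.21 between liver and visceral adipose tissue, -0.01 between mammary gland and visceral adipose tissue, 0.12 between subcutaneous and visceral adipose tissue and -0.03 between mesenteric and omental adipose tissue.

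The 18 USP genes had a median range of 0.53, and 0 of them passed 2-fold in a comparison, the alternatives aside. USP14, a protease that trims ubiquitin chains on the proteasome, came closest. It stood at -1.10 and -0.31 in liver, -1.40 and -1.17 in mammary gland, -0.79 and -0.67 in subcutaneous, -0.52 and -0.29 in mesenteric and -0.29 and -0.05 in omental adipose tissue. With centring, mammary gland was lowest on both arrays. Mammary gland minus visceral adipose tissue was -0.998 ± 0.00, just short of 2-fold, and -0.79 after quantile normalization.

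USP21, a protease of histone H2A, read 0.70 and 0.80 in liver and between -0.06 and 0.23 on every other array. It differed by 0.60 ± 0.03 between liver and mammary gland and 0.77 ± 0.05 between liver and visceral adipose tissue, past 1.5-fold in both. USP19, a form of which is anchored in the endoplasmic reticulum, read 0.82 and 0.63 in liver, against 0.38 and 0.04 in mammary gland and between -0.50 and 0.28 on the adipose arrays. It passed 1.5-fold between liver and visceral adipose tissue (0.79 ± 0.19). USP12 and USP20 each differed by 0.57 between subcutaneous and visceral adipose tissue, just short of 1.5-fold. The 3 clones of USP12 ran from 0.01 to 0.92 there. USP9X lay above the standard in all 5 tissues, from 0.30 in mammary gland to 0.63 in liver. USP7, a protease of the p53 pathway, had 2 clones that disagreed, with -1.73 and 1.10 between liver and mammary gland. The first of these clones had 5 missing spots and duplicate spots up to 2.41 log2 units apart. With that clone left out USP7 passed 2-fold, higher in liver than in mammary gland.

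Genes upstream and downstream of these enzymes were counted from lists of pathway genes. The lists had few genes past 2-fold, 0 to 2 in a direction, and such counts are to be read against the shares of all genes given above, of which 9.36% were higher between liver and mammary gland and 6.23% higher between subcutaneous and visceral adipose tissue. Of the 4 ubiquitin genes listed, 0 were measured here. Among 8 measured ubiquitin-like genes and their enzymes, GABARAPL1, which acts in autophagy, was higher in liver than in mammary gland (1.67 ± 0.16) and than in visceral adipose tissue (1.66 ± 0.09). Of 18 genes of cullin ligases and the COP9 signalosome, FBXO32, the muscle atrophy ligase atrogin-1, was lower in liver than in mammary gland (-1.61 ± 0.03) and than in visceral adipose tissue (-1.65 ± 0.01), and higher in mesenteric than in omental adipose tissue (1.46 ± 0.04). COPS7A, a signalosome subunit, was higher in liver than in mammary gland (1.29 ± 0.14).

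Of 17 other ligases measured between liver and mammary gland, 2 were higher in liver and 0 lower, beside 9.36% and 4.44% of all genes: RNF5 (1.16 ± 0.01) and MARCHF6 (1.01 ± 0.23), both ligases of endoplasmic reticulum degradation. Between liver and visceral adipose tissue RNF5 (1.39 ± 0.13) and SIAH2 (1.01 ± 0.18) were higher and NEDD4 lower (-1.04 ± 0.34). In mammary gland against visceral adipose tissue SYVN1, the ligase HRD1 of the same degradation route, was higher (1.12 ± 0.16) and NEDD4 lower (-1.15 ± 0.10). UBE3B was higher in mesenteric than in omental adipose tissue (1.09 ± 0.01). But it had no value in liver, and its arrays lay far apart in other tissues. They read 0.12 and -1.55 in mammary gland and -0.085 and -1.045 in subcutaneous adipose tissue. None of 6 other deubiquitinases passed 2-fold in a comparison. Among the delivery factors, RAD23B, which carries ubiquitinated proteins to the proteasome, was higher in liver than in mammary gland (1.41 ± 0.04, 1 of 15 measured) and SQSTM1, the autophagy receptor p62, higher in subcutaneous than in visceral adipose tissue (1.04 ± 0.10, 1 of 16).

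Of the 69 genes, 15 had more than 1 clone. All clones of a gene pointed the same way for 12 of the 15 between liver and mammary gland, 9 between liver and visceral adipose tissue, 9 between mammary gland and visceral adipose tissue, 11 between subcutaneous and visceral adipose tissue and 9 between the visceral depots. The layout was chosen for agreement of clones over all genes, so this is no independent check of the names. Duplicate spots lay more than 1 log2 unit apart on some array for 9 members: PSMD9, PSMG4, UBE2H, UBE2J2, UBE2Q2, UBE2S, USP7, USP20 and USP42.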

How the data were processed

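Two-colour cDNA arrays of 5 bovine tissues at peak lactation were analysed. The submitters' design text gives 20 ug of RNA for labelling, hybridisation for 2 days at 42 C, a ScanArray 4000 scanner and GenePix 4.0 for the images. The deposited values are ratios on a log scale, taken as log2 because 94 of them sit at 16.61, the log2 of 100000, and the labels name no base. How background was corrected and arrays were normalized is not stated in the labels. Ceiling values were set missing, in addition to 2402 missing in the deposited table.

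Arrays with the tissue in Cy3 were negated, each array was centred on its median, and spots 2k-1 and 2k were averaged as duplicates. They correlated at 0.83 to 0.92. The annotation identifiers do not follow the table's order, so the 48 table blocks of 171 elements were joined to 16 annotation blocks of 528 identifiers through 384-well plates, by the layout in which clones of a gene agreed best. The mean cosine was 0.45 over 1329 clone pairs, against 0.04 for the next layout and 0.01 for identifiers taken as row numbers. Plates 1 to 20 were named. Symbols were updated through the RefSeq gene table of ARS-UCD2.0, where 5467 of 5472 elements matched. Elements of a gene were averaged.

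Differences were taken within each dye orientation and averaged, and the code was tested on simulated data. The arrays of a tissue share their RNA and count as 1 sample, so no p-value is given. Genes named were those past the size rule, the highest and lowest of each role group, all members of the small groups and the widest and narrowest ranges. Further members past 1.5-fold, relatives set beside a named gene and genes of the lists short of the rule were named after their values were seen, as were the catalytic pairs. Members, lists and tests were chosen with earlier results of these data known. Alternatives were no centring, quantile normalization, each orientation alone, the omental Cy5 array left out, the adipose mean over 3 depots, medians over elements, ceiling values kept, all plates named and a limit on spot gaps. No sequences were used. Python 3.11.15, pandas 2.3.3 and numpy 2.4.6 were used.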

Additional observations from a re-analysis of the deposited data

How the results depend on the processing

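No called difference changed sign under the alternatives run, but medians near 0 did. The median of the members moved by more than the orientations' spread without centring, to -0.0686 (liver minus mammary gland), 0.00125 (liver minus visceral), 0.16 (mammary gland minus visceral), 0.77 (subcutaneous minus visceral) and -0.36 (mesenteric minus omental). It moved after quantile normalization to 0.14 (liver minus visceral) and 0.10 (mammary gland minus visceral), with noisy elements left out to 0.11 (liver minus visceral) and 0.16 (subcutaneous minus visceral), and with 3 depots to -0.0183 in liver and -0.10 in mammary gland. The reported medians were 0.15, 0.05, -0.01, 0.14 and -0.05. The number of members past the rule became 2 (liver minus visceral), 15 (subcutaneous minus visceral) and 2 (mesenteric minus omental) without centring, 2 (liver minus mammary gland) and 2 (mesenteric minus omental) after quantile normalization, 0 in mammary gland against 3 depots and 0 between mesenteric and omental without noisy elements. Without noisy elements members split 4 higher to 2 lower between liver and mammary gland, and 2 to 1 for subcutaneous against visceral. USP7 was added in the first of these and UBE2H in the second. At 1.5-fold the number of members with all elements was 15, 11, 6, 7 and 3 in the 5 comparisons. Without either array of each tissue, or without the omental Cy5 array, medians ran from 0.0275 to 0.17 between liver and mammary gland, 0.0504 to 0.0685 for liver and -0.0504 to 0.0129 for mammary gland against visceral, 0.15 to 0.18 for subcutaneous against visceral and -0.10 to -0.033 between mesenteric and omental, and counts from 2 to 7, 1 to 3, 1 to 2, 2 to 3 and 1 to 3. The causes were not tested. Averaging elements by the median, keeping ceiling values and naming all plates left the counts as reported. No paired analysis was possible because each tissue is 1 RNA sample and the labels carry no replicate numbers. Signal over background was not analysed here, so dim spots were not filtered.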
